A study of Mus musculus with 6 samples.

Results

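The Zfp genes of the mouse encode zinc finger proteins, most of them with tandem C2H2 fingers that bind DNA or RNA, and were followed here in retinal ganglion cells (RGCs), the neurons that send the axons of the optic nerve to the brain. Members were the rows of the deposited expression table with a symbol made of Zfp, a number and at most 1 further letter. Of 10361 gene names in the table, 255 matched, and 250 of these averaged at least 1 FPKM over the 6 libraries. FPKM is a fragment count scaled to transcript length and to all mapped fragments of the library. The 250 names hold 245 distinct sets of assembled loci, which are the members tested among 9987 such sets in all. The members not kept were Zfp968, listed at 0, and Zfp433, Zfp979, Zfp991 and Zfp442 with means of 0.354, 0.746, 0.876 and 0.980 FPKM. The weakest members kept were Zfp947, Zfp804b and Zfp758 with means of 1.16, 1.52 and 1.76 FPKM. No kept member was listed at 0 in any library.

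Poly-A RNA of wild-type C57/6NCrl mice was sequenced in 3 groups of 2 libraries. The adult miR1247 group is adult RGCs given an AAV2 vector that expresses a miR-1247-5p mimic. The adult mCherry group is adult RGCs given an AAV2 vector with a scrambled shRNA mimic. The E18 group is untreated RGCs of embryonic day 18. Adult cells were pooled from 10 retinas for each condition, bound to a Thy1 antibody and sorted for mCherry, which gave about 5000 cells, while about 50000 E18 cells were bound to the same antibody with no sort named. Age, vector, sorting and cell number therefore cannot be told apart between adult and E18 libraries. The labels do not say that libraries of a group came from separate animals, so p-values are set against a spread that may be technical only.

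The largest class of Zfp genes in mammals carries a KRAB box in front of the fingers. The fingers pick the DNA site, and the KRAB box recruits the corepressor Trim28, which brings the histone methyltransferase Setdb1, heterochromatin protein 1 (Cbx1, Cbx3 and Cbx5) and the NuRD deacetylase complex. Many KRAB zinc finger proteins silence retroelements, and a few protect the DNA methylation of imprinted genes. Zfp genes with no KRAB box are mixed in function and include neural transcription factors, RNA-binding proteins and ribosome factors.

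The mimic is named after miR-1247-5p, and the seed of a microRNA decides which messenger RNAs it pairs with. The mature sequence, from RefSeq (GRCm38.p6, chromosome 12, minus strand), is printed with the seed of bases 2 to 8 in capitals. Of the 244 members with a GENCODE vM39 annotation, 8 hold the 7 bases GGACGGG that pair with this seed in the 3′ UTR of the canonical transcript, searched on the transcript strand only. That share is 3.28%, and it was 3.31% over all tested genes with an annotation. The sites are printed as DNA on the transcript strand (GRCm39) with the match in capitals, since pairing of the mimic with members is looked for there.
miR-1247-5p: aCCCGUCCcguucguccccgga
Zfp553 site 1: ctccttaaaagGGACGGGggttttgc
Zfp553 site 2: ctccttaaaagGGACGGGggttttac
Zfp575: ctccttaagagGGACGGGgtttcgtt
Zfp706: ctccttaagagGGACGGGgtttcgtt
Zfp777: cttcttccccaGGACGGGgtagtgag
Zfp787: GGACGGGgaggcccg
Zfp811: gggaaggaagaGGACGGGgaggaaga
Zfp84 site 1: ggttattttggGGACGGGatgaatca
Zfp84 site 2: tcaaaactgagGGACGGGggaagccc
Zfp949: gatgaagtcaaGGACGGGtctgcagc
The stretches from Zfp575 and Zfp706, genes on chromosomes 7 and 15, are identical over all letters printed, and both sites of Zfp553 begin with nearly the same letters as these. The site of Zfp787 starts at position 1 of its UTR. A further 8 members hold the match in their coding sequence.

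Summed over the table, a library held between 339224 and 392238 FPKM, and the depth in reads is unknown. Libraries of a group correlated at 0.980 to 0.985 over log2 values, miR1247 with mCherry libraries at 0.960 to 0.962, and adult with E18 libraries at 0.692 to 0.701. All 8 RGC markers were listed, with summed levels of 1664 and 1622 FPKM in miR1247, 2628 and 2577 FPKM in mCherry and 3273 and 3275 FPKM in E18 libraries. Members of this list differed in direction: Thy1, the antigen of the purification, had 643 and 618 FPKM in miR1247, 863 and 847 FPKM in mCherry and 358 and 346 FPKM in E18 libraries, and Slc17a6 was likewise higher in mCherry than in E18 libraries. The other 6, such as Isl1 with 9.22 and 11.8 FPKM in miR1247, 14.8 and 18.4 FPKM in mCherry and 163 and 164 FPKM in E18 libraries, were lower in both adult groups than at E18. Of 6 Müller glia and astrocyte markers 3 were listed (Glul, Apoe and Aldoc), with sums of 1348 and 1225 FPKM in miR1247, 1017 and 697.0 FPKM in mCherry and 93.5 and 96.3 FPKM in E18 libraries. The rod markers listed, 3 of 5, summed to 26.9 and 24.3 FPKM in miR1247, 46.8 and 45.6 FPKM in mCherry and 6.41 and 5.57 FPKM in E18 libraries. The listed amacrine markers (3 of 6) summed to 358 and 380.1 FPKM in miR1247, 279 and 282 FPKM in mCherry and 227 and 242 FPKM in E18 libraries. Pax6 carries most of the amacrine sum, while Gad2 had 104 and 109.99 FPKM in miR1247, 81.2 and 82.5 FPKM in mCherry and 0.682 and 1.03 FPKM in E18 libraries. Slc6a9 had 34.5 and 41.2 FPKM in miR1247, 31.2 and 30.1 FPKM in mCherry and 0.448 and 1.42 FPKM in E18 libraries, so both were near 0 at E18. The bipolar markers (2 of 4) summed to 40.4 and 37.02 FPKM in miR1247, 25.1 and 30.04 FPKM in mCherry and 10.5 and 11.3 FPKM in E18 libraries. Markers of cones, microglia, endothelium and progenitors were not listed. The part of these other cells in the results on Zfp genes was not tested.

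Zfp genes were expressed at low levels in all 3 groups. The median member stood at 6.73 and 7.06 FPKM in miR1247, 7.15 and 7.06 FPKM in mCherry and 9.00 and 8.91 FPKM in E18 libraries, while the median of all tested genes lay between 13.1 and 14.9 FPKM. At least 50 FPKM was reached by 4 members in each adult library and by 9 in each E18 library. The strongest adult member was Zfp385a, an RNA-binding protein that partners p53, with means of 195 ± 0.301 FPKM in miR1247, 166 ± 2.85 FPKM in mCherry and 65.4 ± 7.66 FPKM in E18 libraries. Next in both adult groups, and highest at E18, was the locus Elavl3/Zfp653, at 129 ± 0.0566 FPKM in miR1247, 108 ± 0.757 FPKM in mCherry and 180.0 ± 3.47 FPKM in E18 libraries. The values of this locus are listed identically under Zfp653 and under Elavl3, a neuronal RNA-binding protein, so its level cannot be assigned to Zfp653. Zfp706 followed in adult cells, at 63.6 ± 0.0472 FPKM in miR1247, 66.7 ± 5.03 FPKM in mCherry and 82.04 ± 6.53 FPKM in E18 libraries. Zfp428 in miR1247 (53.6 ± 1.48 FPKM), Zfp365 in miR1247 and mCherry (43.5 ± 3.16 and 49.2 ± 1.72 FPKM) and Zfp664 in mCherry (47.2 ± 1.97 FPKM) completed the first 5 of the adult groups. In E18 cells Zfp57 came after Elavl3/Zfp653 (112 ± 6.59 FPKM) and Zfp207 (69.9 ± 4.90 FPKM) came next after Zfp706, ahead of Zfp385a. Neighbours in these orders lay within their spread in places: in mCherry libraries Zfp428 averaged 47.1 ± 10.6 FPKM, next to Zfp664. The locus of Zfp428 overlaps 4 other coding genes, so its level may hold reads of these.

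The first comparison sets adult against embryonic RGCs, with the mCherry vector group standing for the adult state. In mCherry over E18, 39 members rose and 100 fell, and 106 did not pass the test (limma on log2(FPKM + 1), Benjamini-Hochberg adjusted p under 0.05 over all 9987 genes). The 139 calls are 56.7% of the members, against 70.1% of all tested genes called in either direction. The 100 members that fell are 40.8% of the members, against 40.2% of all tested genes, a share close to the background. The 39 that rose are 15.9%, against 29.8% of all tested genes. With at least a 2-fold change, 10 members rose (4.08%, against 14.4% of all tested genes) and 35 fell (14.3%, against 20.3%). The median log2 fold change was -0.28 over the members and -0.16 over all tested genes. Under median ratio scaling, which moves the median of all genes to -0.02, the member median was -0.14 and the split was 49 higher to 79 lower (20.0% and 32.2%), against 3424 higher and 3406 lower over all tested genes (34.3% and 34.1%). In a bulk library, fewer cells that express a gene and less RNA per cell cannot be told apart.

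**Figure D1:**
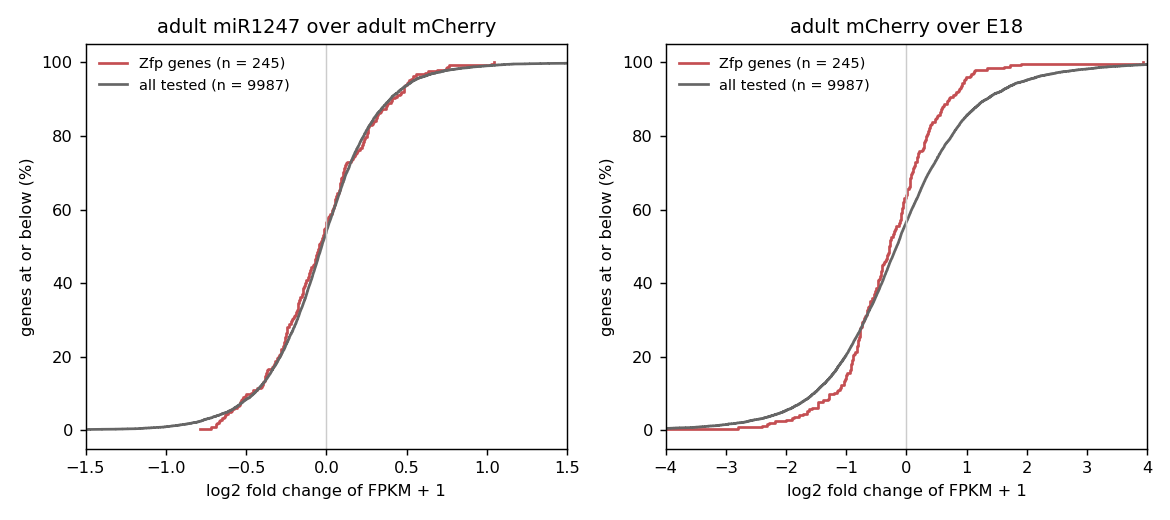
Cumulative percentage of genes (vertical axis) at or below each log2 fold change of FPKM + 1 (horizontal axis) for 245 Zfp genes (red) and all 9987 tested genes (grey), adult miR1247 over adult mCherry on the left and adult mCherry over E18 on the right. The curves lie on each other on the left, with medians of -0.05 and -0.03, while on the right the Zfp curve lies under that of all genes at the left end and above it at the right end.

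Of the 139 calls in mCherry over E18, 74 (20 higher and 54 lower) stayed called without any one of the 6 libraries. The number higher was between 24 and 36 and the number lower between 69 and 97 when a library was left out, with the lowest numbers without E18 replicate 1 (24 higher) and without E18 replicate 2 (69 lower).

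The gene that fell most was Zfp57, a KRAB zinc finger protein that keeps imprinted loci methylated. Its locus lies at chr17:37294733-37321527 (mm39). It stood at 3.93 and 4.41 FPKM in miR1247, 3.23 and 2.90 FPKM in mCherry and 108 and 117 FPKM in E18 libraries. Both adult groups are far below E18 and do not overlap it (log2 fold change -4.80 ± 0.120, limma adjusted p = 3.95e-07). Zfp692, at chr11:58197895-58205845, had 1.80 and 1.55 FPKM in miR1247, 2.22 and 1.28 FPKM in mCherry and 19.04 and 16.7 FPKM in E18 libraries (log2 fold change -2.80 ± 0.213, limma adjusted p = 4.03e-05). Zfp821 had 15.6 and 15.5 FPKM in miR1247, 9.66 and 12.7 FPKM in mCherry and 61.96 and 63.9 FPKM in E18 libraries (log2 fold change -2.40 ± 0.130, limma adjusted p = 9.00e-06). In both genes every adult library was lower than every E18 library. The locus of Zfp57 overlaps 2 other annotated coding genes, and those of Zfp692 and Zfp821 overlap 1 each. The kit as named does not keep strand, so part of these values may come from the overlapping genes.

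The other members with the lowest fold changes were weak in adult cells, with the exception of Zfp579. Zfp697 had 1.18 and 1.44 FPKM in miR1247, 1.23 and 0.490 FPKM in mCherry and 7.20 and 9.07 FPKM in E18 libraries, with a log2 fold change of -2.32 ± 0.252. Zfp41 had 2.96 and 1.67 FPKM in miR1247, 2.10 and 2.56 FPKM in mCherry and 14.99 and 15.4 FPKM in E18 libraries (-2.29 ± 0.221). Zfp811, which has a KRAB box and 1 of the seed matches above, had 3.93 and 2.83 FPKM in miR1247, 3.61 and 2.77 FPKM in mCherry and 18.3 and 17.4 FPKM in E18 libraries (-2.18 ± 0.187). Adult and E18 libraries did not overlap in any of them. In mCherry over E18 the groups did not overlap in 192 of 245 members, and that share over all tested genes is not given here. In genes picked by large, called fold changes, here and below, a lack of overlap describes the values and adds no support. Zfp280c, on the X chromosome, had 1.64 and 2.35 FPKM in miR1247, 1.42 and 2.16 FPKM in mCherry and 10.04 and 10.2 FPKM in E18 libraries (-2.01 ± 0.212). Zfp579 had 11.4 and 13.3 FPKM in miR1247, 8.96 and 5.15 FPKM in mCherry and 31.2 and 25.3 FPKM in E18 libraries (-1.89 ± 0.239). Its mCherry libraries differ from each other by more than its E18 libraries do, on the log scale. The loci of Zfp811 and Zfp579 overlap 1 other coding gene each. The adjusted p-values of these 5 genes (limma) ran from 7.13e-05 to 0.000438, and all 8 genes stayed called without any one library.

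The gene that rose most was Zfp365, also known as DBZ, a protein that binds Disc1. Its locus lies at chr10:67721933-67748604 (mm39). It stood at 41.2 and 45.7 FPKM in miR1247, 48.00 and 50.4 FPKM in mCherry and 2.15 and 2.43 FPKM in E18 libraries. It was weak at E18 and among the strongest members in both adult groups (log2 fold change 3.93 ± 0.105, limma adjusted p = 4.82e-07). No finger of the searched C2H2 pattern was found in its annotated protein. Zfp385b, a relative of Zfp385a, had 14.7 and 12.7 FPKM in miR1247, 15.6 and 12.2 FPKM in mCherry and 2.37 and 3.66 FPKM in E18 libraries (log2 fold change 1.90 ± 0.205, limma adjusted p = 0.000212). Zfp385a itself had 196 and 195 FPKM in miR1247, 164 and 168 FPKM in mCherry and 59.96 and 70.8 FPKM in E18 libraries (log2 fold change 1.33 ± 0.0804, limma adjusted p = 1.41e-05). Adult libraries were above E18 libraries with no overlap in both relatives.

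Zfp612, a KRAB member, had 20.98 and 21.1 FPKM in miR1247, 23.8 and 22.4 FPKM in mCherry and 5.55 and 7.16 FPKM in E18 libraries, a log2 fold change of 1.72 ± 0.133. Zfp771 had 21.3 and 21.9 FPKM in miR1247, 20.2 and 19.1 FPKM in mCherry and 5.85 and 5.59 FPKM in E18 libraries (1.62 ± 0.105). Zfp467, a transcription factor of adipocyte and bone cell differentiation, had 39.4 and 37.4 FPKM in miR1247, 33.8 and 36.4 FPKM in mCherry and 15.7 and 15.2 FPKM in E18 libraries (1.13 ± 0.0850). The E18 libraries were the lowest in all of these. Zfp770 had 9.63 and 11.3 FPKM in miR1247, 11.1 and 10.1 FPKM in mCherry and 4.64 and 4.17 FPKM in E18 libraries (1.10 ± 0.145). Zfp931 had 8.37 and 8.74 FPKM in miR1247, 5.96 and 6.43 FPKM in mCherry and 3.82 and 1.27 FPKM in E18 libraries (log2 fold change 1.12 ± 0.332, limma adjusted p = 0.0208). The E18 libraries of Zfp931 differ by a factor of 3, and its log2 fold change was 0.58 without E18 replicate 2 and 1.66 without E18 replicate 1. Its call was lost without either mCherry replicate. The other 7 genes with the highest fold changes stayed called without any one library.

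**Figure D2:**
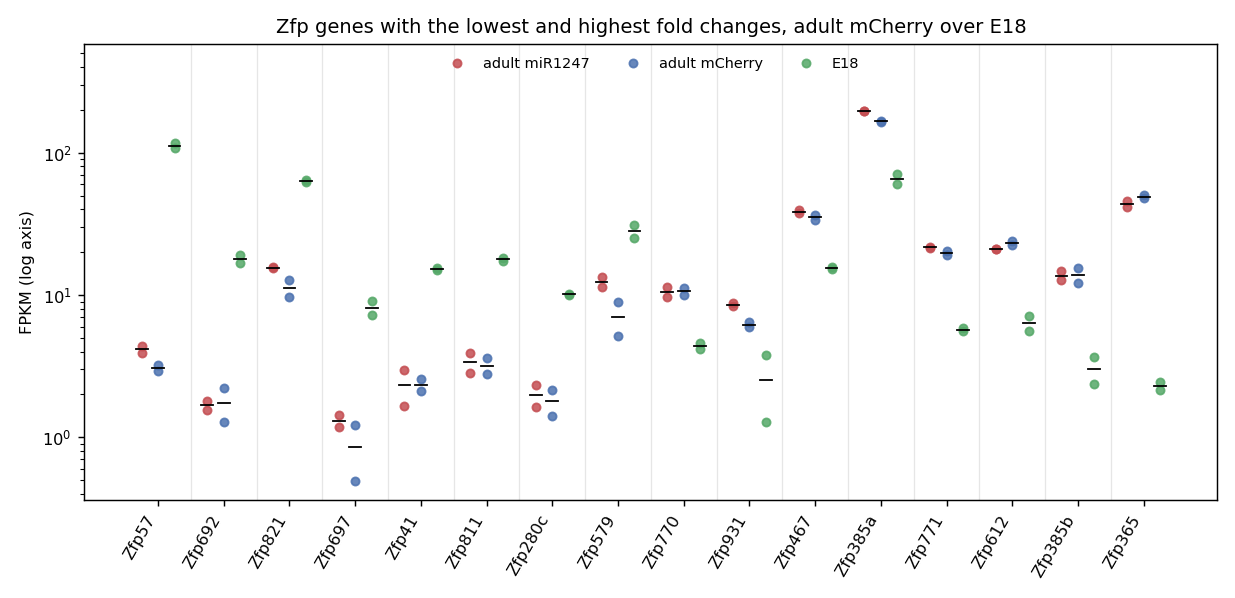
FPKM (log axis) of the 8 Zfp genes with the lowest and the 8 with the highest log2 fold change among those called in adult mCherry over E18, with 1 point per library and a black bar at the group mean. Zfp57 lies above 100 FPKM at E18 and under 5 FPKM in every adult library, and Zfp365 lies under 3 FPKM at E18 and above 40 FPKM in every adult library.

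Of the members known to keep imprints and silence retroelements, 3 of 8 names were tested, and 2 fell. With 40.2% of all tested genes lower, a count from 3 genes says little about the group. Besides Zfp57 this was Zfp445, the other zinc finger protein known to protect imprints, at 19.8 and 18.1 FPKM in miR1247, 23.7 and 21.8 FPKM in mCherry and 65.4 and 63.7 FPKM in E18 libraries (log2 fold change -1.46 ± 0.0875, limma adjusted p = 1.37e-05). Adult and E18 libraries of Zfp445 did not overlap. Zfp932, a repressor of endogenous retroviruses, had 4.21 and 9.73 FPKM in miR1247, 8.46 and 3.29 FPKM in mCherry and 11.3 and 12.8 FPKM in E18 libraries and did not pass (log2 fold change -1.03 ± 0.447, limma adjusted p = 0.0776). Its libraries within each adult group differ more than 2-fold. Zfp568, Zfp708, Zfp809, Zfp961 and Zfp42 were not analysed here.

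Members that act on RNA and ribosomes moved in both directions: of 11 tested, 5 rose and 4 fell (45.5% and 36.4%, against 29.8% and 40.2% of all tested genes, which also moved in both directions). Zfp385a and Zfp385b are the strongest risers. Zfp593, a ribosome biogenesis factor, had 12.9 and 11.1 FPKM in miR1247, 14.7 and 13.6 FPKM in mCherry and 6.54 and 5.99 FPKM in E18 libraries (log2 fold change 1.06 ± 0.132, limma adjusted p = 0.000422). Zfp106, an RNA-binding protein whose loss damages motor neurons in mice, had 29.7 and 28.3 FPKM in miR1247, 28.5 and 27.95 FPKM in mCherry and 17.8 and 16.1 FPKM in E18 libraries (log2 fold change 0.70 ± 0.0915, limma adjusted p = 0.000516). Both were higher in every adult library. Zfp830, a splicing factor, was called higher in mCherry at 9.70 and 15.1 FPKM against 7.26 and 7.26 FPKM at E18 (limma adjusted p = 0.0225). Its miR1247 libraries, at 7.37 and 7.38 FPKM, lie next to E18. Its call was lost without mCherry replicate 2, E18 replicate 1 or E18 replicate 2.

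Zfp207, a spindle protein known as BuGZ, had 26.2 and 26.8 FPKM in miR1247, 29.4 and 20.5 FPKM in mCherry and 73.4 and 66.5 FPKM in E18 libraries (log2 fold change -1.47 ± 0.160, limma adjusted p = 0.000215). Zfp326, a subunit of the DBIRD complex that couples transcription to splicing, had 8.30 and 7.16 FPKM in miR1247, 8.30 and 8.52 FPKM in mCherry and 22.3 and 24.8 FPKM in E18 libraries (log2 fold change -1.38 ± 0.126, limma adjusted p = 9.66e-05). In both, all adult libraries were lower than E18. Zfp598, the ubiquitin ligase that marks collided ribosomes, had 10.1 and 12.3 FPKM in miR1247, 8.43 and 6.38 FPKM in mCherry and 12.6 and 13.3 FPKM in E18 libraries (log2 fold change -0.74 ± 0.167, limma adjusted p = 0.00675), a call lost without E18 replicate 2. Zfp638, a nucleic acid binding protein known as NP220, had 15.3 and 17.6 FPKM in miR1247, 21.8 and 18.9 FPKM in mCherry and 29.1 and 27.8 FPKM in E18 libraries (log2 fold change -0.46 ± 0.115, limma adjusted p = 0.00993), a call lost without mCherry replicate 2 or E18 replicate 1. Zfp346 and Zfp622, a double-stranded RNA binder and a factor of the large ribosomal subunit, did not pass, with log2 fold changes of 0.19 ± 0.129 and 0.28 ± 0.142.

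Of 17 members known in neural development or neurons, 3 rose and 8 fell (17.6% and 47.1%, against 29.8% and 40.2% of all tested genes). Besides Zfp365, Zfp503 rose, a gene of striatal and eye development also called Nolz1, with 30.99 and 27.8 FPKM in miR1247, 19.7 and 20.02 FPKM in mCherry and 10.1 and 8.98 FPKM in E18 libraries (log2 fold change 0.99 ± 0.109, limma adjusted p = 0.000232). Zfp804a, whose human counterpart is a schizophrenia risk gene, had 9.91 and 10.6 FPKM in miR1247, 9.21 and 9.88 FPKM in mCherry and 5.51 and 5.68 FPKM in E18 libraries (log2 fold change 0.68 ± 0.127, limma adjusted p = 0.00289). E18 libraries were lowest in both. Among those that fell, Zfp711, whose human counterpart is mutated in X-linked intellectual disability, had 4.22 and 4.87 FPKM in miR1247, 4.71 and 4.39 FPKM in mCherry and 15.8 and 15.1 FPKM in E18 libraries (log2 fold change -1.57 ± 0.140, limma adjusted p = 8.62e-05). Zfp335, whose human counterpart is mutated in microcephaly, had 3.04 and 2.65 FPKM in miR1247, 3.52 and 2.76 FPKM in mCherry and 8.38 and 10.1 FPKM in E18 libraries (log2 fold change -1.31 ± 0.182, limma adjusted p = 0.000716). Zfp609, a partner of the cohesin loader Nipbl in cortical neurons, had 10.8 and 11.6 FPKM in miR1247, 11.6 and 12.7 FPKM in mCherry and 24.7 and 23.5 FPKM in E18 libraries (log2 fold change -0.93 ± 0.109, limma adjusted p = 0.000303). Adult and E18 libraries did not overlap in these 3 genes.

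Zfp521, a regulator of neural progenitors, had 12.1 and 13.98 FPKM in miR1247, 17.4 and 19.2 FPKM in mCherry and 31.8 and 37.6 FPKM in E18 libraries (log2 fold change -0.88 ± 0.126, limma adjusted p = 0.000797). Its values run in 1 order, with both miR1247 libraries lowest and both E18 libraries highest. Zfp608 (log2 fold change -0.80 ± 0.189), Zfp804b (-0.66 ± 0.213), Zfp292 (-0.46 ± 0.128) and Zfp24, a gene needed for myelination (-0.43 ± 0.119), fell too. Each of these 4 calls was lost without at least 1 library: Zfp608 without E18 replicate 1, Zfp804b without either mCherry replicate or E18 replicate 1, Zfp292 without mCherry replicate 1 or E18 replicate 2, and Zfp24 without mCherry replicate 1 or either E18 replicate. Their highest adjusted p-values (limma) with a library left out were 0.0609, 0.0868, 0.0947 and 0.0870. The 6 members of this group that did not pass, Zfp703, Zfp423, Zfp369, Zfp462, Zfp110 and Zfp536, had log2 fold changes from -0.53 to 0.41.

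Of 17 members that bind promoters or belong to chromatin complexes, 1 rose and 9 fell (5.88% and 52.9%, against 29.8% and 40.2% of all tested genes). Zfp410, known as the activator of the NuRD gene Chd4, had 3.78 and 5.72 FPKM in miR1247, 3.34 and 5.89 FPKM in mCherry and 20.1 and 17.8 FPKM in E18 libraries (log2 fold change -1.86 ± 0.265, limma adjusted p = 0.000787). Chd4 itself, which is not a member, averaged 37.00 ± 0.225 FPKM in miR1247, 41.5 ± 1.23 FPKM in mCherry and 83.98 ± 0.229 FPKM in E18 libraries. Both were lower in every adult library. Zfp618, a partner of the methylation reader Uhrf2, had 4.49 and 5.03 FPKM in miR1247, 5.82 and 4.98 FPKM in mCherry and 18.98 and 19.2 FPKM in E18 libraries (log2 fold change -1.65 ± 0.138, limma adjusted p = 6.39e-05). Zfp384 had 6.68 and 9.49 FPKM in miR1247, 8.73 and 10.95 FPKM in mCherry and 23.3 and 24.2 FPKM in E18 libraries (log2 fold change -1.20 ± 0.182, limma adjusted p = 0.00110). Zfp518b, Zfp451, a SUMO ligase, and the complex partners Zfp532 and Zfp592 fell by 1.08, 0.86, 0.81 and 0.72 on the log2 scale. These 7 calls held without any one library. Their related partner Zfp687 did not pass, at 0.29 ± 0.130. Zfp143, a promoter-binding activator, and the locus Gm28050/Zfp644, which holds a partner of the methyltransferase G9a, had log2 fold changes of -0.58 ± 0.191 and -0.53 ± 0.169. Zfp91, a ubiquitin ligase, rose with 0.28 ± 0.0897. The call of Zfp143 was lost without any one of the mCherry and E18 libraries, that of Zfp644 without mCherry replicate 2 or E18 replicate 2, and that of Zfp91 without either mCherry replicate or E18 replicate 2.

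**Figure D3:**
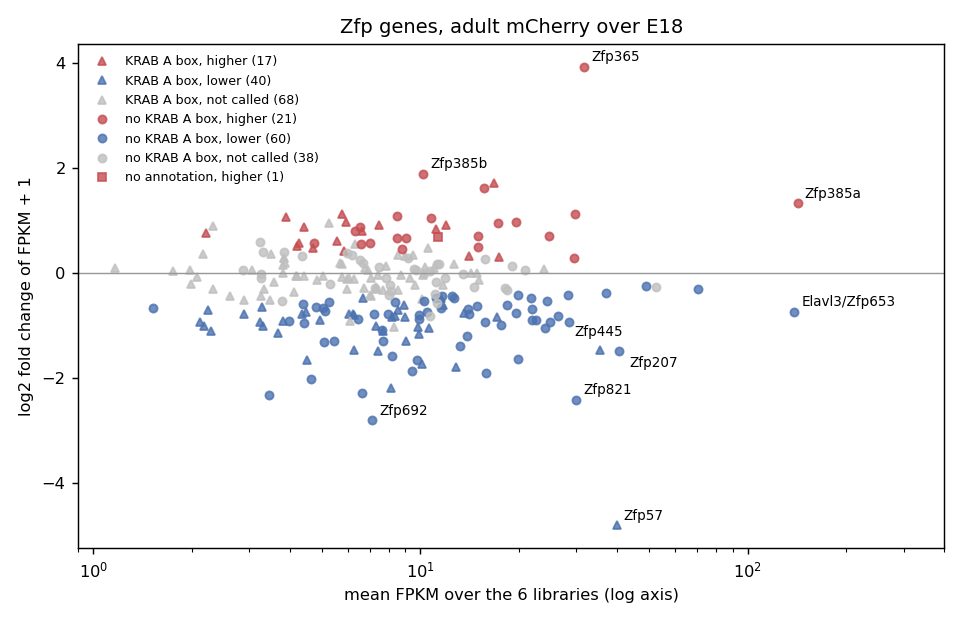
Log2 fold change of FPKM + 1, adult mCherry over E18 (vertical axis), against the mean FPKM over 6 libraries (log axis) for 245 Zfp genes, red where higher, blue where lower and grey where not called, with triangles for members with a KRAB A box, circles for those without and a square for 1 member with no matched annotation. Zfp365 and Zfp57 lie apart from the rest at 3.93 and -4.80, and the members above 50 FPKM are circles.

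A KRAB A box was found in 125 members and not in 119, while Zfp651 matched no annotated gene. KRAB members had a median of 11 fingers, the others of 6, and the highest count was 30. KRAB members were weaker: their median was 5.14 and 5.34 FPKM in miR1247, 5.92 and 5.94 FPKM in mCherry and 6.98 and 6.90 FPKM in E18 libraries. Members with no KRAB box had medians of 9.86 and 9.57 FPKM in miR1247, 9.70 and 10.1 FPKM in mCherry and 12.4 and 12.2 FPKM in E18 libraries. In mCherry over E18, 17 KRAB members rose and 40 fell (13.6% and 32.0%, against 29.8% and 40.2% of all tested genes). Their median log2 fold change was -0.13. Of the members with no KRAB box, 21 rose and 60 fell (17.6% and 50.4%), with a median of -0.41. With a pseudocount of 0.1 in place of 1, which compresses weak genes less, the medians were -0.14 and -0.42. In miR1247 over E18, 12 KRAB members rose and 45 fell (9.6% and 36.0%). Of those without, 21 rose and 62 fell (17.6% and 52.1%), with 28.4% and 41.5% over all tested genes. The difference between the classes was not tested. Of 25 tested genes with a KRAB A box outside the Zfp names, 5 rose and 5 fell in mCherry over E18. That is 20.0% each, against the same 29.8% and 40.2%.

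By number of fingers, members with up to 4 had 11 calls higher and 25 lower of 51 in mCherry over E18, and those with 5 to 9 had 10 and 34 of 72. Those with 10 to 14 fingers had 8 and 32 of 80, and those with 15 or more had 9 and 9 of 41. In shares, 21.6% rose and 49.0% fell with up to 4 fingers, 13.9% and 47.2% with 5 to 9, 10% and 40% with 10 to 14, and 22.0% and 22.0% with 15 or more, against 29.8% and 40.2% of all tested genes. In miR1247 over E18 the class with 15 or more had 5 calls higher and 9 lower (12.2% and 21.95%, against 28.4% and 41.5%). No finger of the pattern was found in Zfp326, Zfp703, Zfp330, Zfp503 and Zfp365. A RefSeq window of 300 bases around the start (250 before, 50 after, GRCm38.p6) was given for 201 members. It held a median of 17 CG pairs (the letters CG, the same on both strands), against 24 over 8062 tested genes with a window. KRAB members had a median of 12 and a lower quartile of 9, and the others a median of 23. The window with most CG pairs held 9 for Zfp57 and 8 for Zfp365, counts that 8.06% and 6.59% of all tested genes, and 21.9% and 16.4% of the members, did not exceed.

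**Figure D4:**
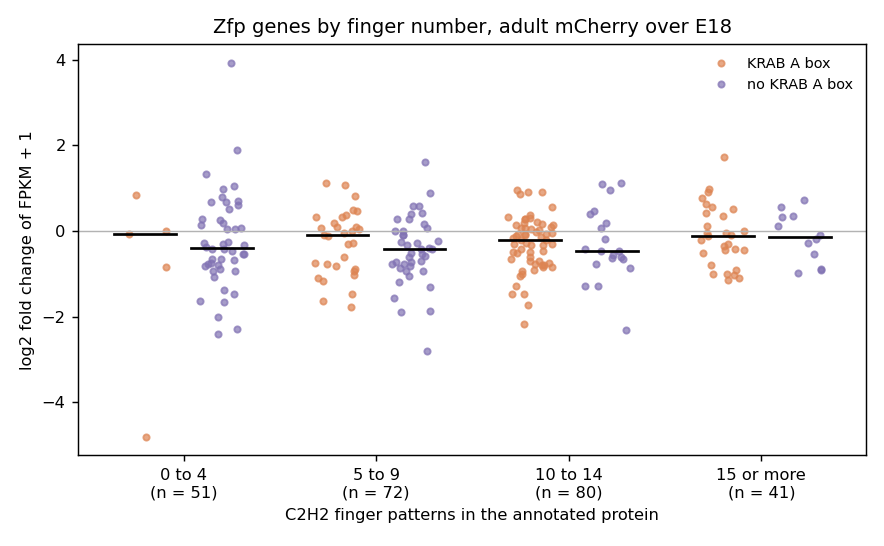
Log2 fold change of FPKM + 1, adult mCherry over E18 (vertical axis), for 244 Zfp genes by the number of C2H2 finger patterns in the annotated protein, orange for members with a KRAB A box and purple for those without, with a black bar at each median. Medians lie below 0 in every class, and the 2 points furthest out, Zfp57 at -4.80 and Zfp365 at 3.93, have at most 4 finger patterns.

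Zfp genes lie in clusters of related copies, and the chromosomes with most members were chromosome 7 with 58 and chromosome 17 with 35. On chromosome 7, 9 rose and 22 fell (15.5% and 37.9%, against 26.0% and 42.2% of tested genes with 1 locus there). On chromosome 17, 4 rose and 14 fell (11.4% and 40%, against 25.2% and 44.1%), so the shares that fell were near the background on both. On chromosome 9, 10 of 14 members fell and 1 rose, where 44.6% of such genes fell. On chromosome 2, 6 of 11 rose, where 32.5% of such genes rose. These backgrounds leave out tested genes with more than 1 locus, while the member counts keep such members, 33 over all chromosomes. Chromosomes 9 and 2 have few members and were picked out by their counts. Chromosome 13, for example, had 2 higher and 1 lower of 13, and differences between chromosomes were not tested. Reads from near-identical copies may be divided between them in ways the table does not show. Of the members, 202 have 1 locus that no other name holds, 7 share loci with another Zfp name and 5 with a gene outside the family. Among the 202, 30 rose and 86 fell (14.85% and 42.57%, against 29.8% and 40.2% of all tested genes).

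The corepressor genes that KRAB proteins work with were set beside the members. Of 35 tested, 5 rose and 21 fell in mCherry over E18 (14.3% and 60%, against 29.8% and 40.2% of all tested genes), with a median log2 fold change of -0.59. The locus Sumo3/Ube2g2, called higher, and Eml3/Mta2, called lower, are shared with another gene. Trim28 averaged 43.8 ± 0.876 FPKM in miR1247, 41.7 ± 1.66 FPKM in mCherry and 104 ± 0.854 FPKM in E18 libraries (log2 fold change -1.30 ± 0.0641, limma adjusted p = 5.97e-06). Setdb1 averaged 6.15 ± 0.756 FPKM in miR1247, 4.55 ± 0.486 FPKM in mCherry and 22.1 ± 1.09 FPKM in E18 libraries (log2 fold change -2.06 ± 0.145, limma adjusted p = 2.81e-05). Morc2a, which works with the HUSH silencing complex, averaged 6.93 ± 0.122 FPKM in miR1247, 5.09 ± 0.776 FPKM in mCherry and 26.4 ± 1.80 FPKM in E18 libraries (log2 fold change -2.17 ± 0.140, limma adjusted p = 1.86e-05). All adult libraries were lower than E18 libraries in these. The deacetylase Hdac2 averaged 32.9 ± 1.06 FPKM in miR1247, 40.2 ± 2.03 FPKM in mCherry and 133 ± 1.34 FPKM in E18 libraries. Among the genes that rose were Mbd2, Mphosph8, Mta3 and the locus Sumo3/Ube2g2, with Mbd2 at 33.7 ± 0.758 FPKM in miR1247, 33.1 ± 3.44 FPKM in mCherry and 13.2 ± 3.40 FPKM in E18 libraries.

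The other families of C2H2 genes were Zbtb (31 tested), Zkscan (8) and Zscan (5). In mCherry over E18, 8 Zbtb entries rose and 12 fell, 1 Zkscan gene rose and 3 fell, and 4 Zscan genes fell. Of the Zbtb calls, 2 higher (Hspa2/Zbtb1 and Tapbp/Zbtb22) and 2 lower (Rmnd1/Zbtb2 and Rpl24/Zbtb11) are loci shared with another gene and cannot be assigned to Zbtb genes, which leaves 6 higher and 10 lower of 26. The background is again 29.8% higher and 40.2% lower. Zbtb4 and Zbtb7a rose about as much as Zfp365. Zbtb4 averaged 70.98 ± 1.65 FPKM in miR1247, 76.5 ± 2.82 FPKM in mCherry and 3.04 ± 0.279 FPKM in E18 libraries (log2 fold change 4.26 ± 0.0895, limma adjusted p = 2.07e-07). Zbtb7a averaged 69.3 ± 2.49 FPKM in miR1247, 79.5 ± 5.17 FPKM in mCherry and 4.16 ± 0.574 FPKM in E18 libraries (log2 fold change 3.97 ± 0.106, limma adjusted p = 4.79e-07). Zbtb12 averaged 6.19 ± 0.00326 FPKM in miR1247, 5.59 ± 1.93 FPKM in mCherry and 57.9 ± 3.69 FPKM in E18 libraries (log2 fold change -3.19 ± 0.199, limma adjusted p = 1.65e-05). These 3 were named after their values were seen.

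The second comparison sets the adult miR1247 group against E18, and it shares the E18 libraries with the first. Of the members, 34 rose and 107 fell, which is 13.9% and 43.7%, against 28.4% and 41.5% of all tested genes. With at least a 2-fold change, 13 rose and 42 fell (5.31% and 17.1%, against 14.1% and 21.1%). The median log2 fold change was -0.39 over the members and -0.19 over all tested genes, and the split was 46 to 82 under median ratio scaling, with 3424 to 3428 over all tested genes. Zfp57 (log2 fold change -4.45 ± 0.120, limma adjusted p = 4.84e-07) and Zfp365 (log2 fold change 3.75 ± 0.105, limma adjusted p = 5.64e-07) were again the extremes. The 141 calls are 57.6% of the members, against 69.9% of all tested genes. Of these calls, 88 (22 higher and 66 lower) stayed called without any one library.

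The last comparison asks what the mimic changed among adult cells. In miR1247 over mCherry, 6 members rose and 2 fell, which makes 3.27% of the members, against 9.75% of all tested genes called in either direction. By direction these are 2.45% and 0.816% of the members, against 3.53% and 6.22% of all tested genes, and no called member changed at least 2-fold (0.441% of all tested genes rose and 0.761% fell by that much). The unadjusted p was under 0.05 for 55 members. The share of all tested genes under that limit is not given here, so this count has no background to be read against. The median was -0.05 over the members and -0.03 over all tested genes. Of 245 members, 106 lay over 0 and 139 under 0, and the median of all tested genes lay under 0 as well.

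The members that fell in miR1247 cells were Zfp983 and Zfp688, both with a KRAB box. Zfp983 had 13.97 and 13.2 FPKM in miR1247, 22.1 and 20.7 FPKM in mCherry and 17.04 and 17.04 FPKM in E18 libraries (log2 fold change -0.62 ± 0.0983, limma adjusted p = 0.0188). Zfp688 had 10.4 and 9.90 FPKM in miR1247, 14.3 and 16.3 FPKM in mCherry and 7.61 and 8.43 FPKM in E18 libraries (log2 fold change -0.55 ± 0.127, limma adjusted p = 0.0452). In both, mCherry libraries were the highest of the 3 groups and did not overlap the others. The miR1247 and mCherry libraries did not overlap in 132 of 245 members, while 8 were called.

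Among those that rose, Zfp710 had 4.79 and 5.54 FPKM in miR1247, 2.89 and 2.74 FPKM in mCherry and 8.08 and 8.60 FPKM in E18 libraries (log2 fold change 0.69 ± 0.153, limma adjusted p = 0.0409). Its miR1247 libraries lie between those of mCherry and E18. Zfp503 had the values given above, 31.0 and 27.8 FPKM in miR1247 against 19.7 and 20.0 FPKM in mCherry libraries (log2 fold change 0.54 ± 0.109, limma adjusted p = 0.0332). Zfp746, known as PARIS, a parkin substrate that represses Ppargc1a, had 18.9 and 18.8 FPKM in miR1247, 13.4 and 12.6 FPKM in mCherry and 12.02 and 13.8 FPKM in E18 libraries (log2 fold change 0.50 ± 0.112, limma adjusted p = 0.0416). Its mCherry and E18 libraries overlap, and its miR1247 libraries lie above both. The locus Repin1/Zfp775 had 26.6 and 27.2 FPKM in miR1247, 17.4 and 19.3 FPKM in mCherry and 17.9 and 16.97 FPKM in E18 libraries (log2 fold change 0.53 ± 0.0972, limma adjusted p = 0.0263). The locus of Zfp524 and Zfp865 had 20.3 and 20.2 FPKM in miR1247, 14.6 and 14.9 FPKM in mCherry and 10.5 and 9.69 FPKM in E18 libraries (log2 fold change 0.43 ± 0.103, limma adjusted p = 0.0494). The locus Elavl3/Zfp653 had 129 and 129 FPKM in miR1247, 109 and 108 FPKM in mCherry and 183 and 178 FPKM in E18 libraries (log2 fold change 0.26 ± 0.0468, limma adjusted p = 0.0263). In all 3 loci the miR1247 libraries were above the mCherry libraries. The values of Repin1/Zfp775 and Elavl3/Zfp653 are also listed under a gene outside the family, so neither rise can be assigned to a Zfp gene.

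None of these 8 calls held when any one of the 6 libraries was left out. Calls over all tested genes became fewer in each of these fits as well, so the loss is not particular to the members. The log2 fold changes then ran from 0.25 to 0.78 for the 6 that rose and from -0.67 to -0.46 for the 2 that fell. Without mCherry replicate 1 another gene, Zfp825, was the single member called, and without each of the other libraries none was. With listed totals made equal, 0 members were higher and 4 lower, with 136 higher and 771 lower over all tested genes. The summed RGC markers were lower in miR1247 than in mCherry libraries, at 1664 and 1622 FPKM against 2628 and 2577 FPKM, and all 8 of them were lower. The listed glial, amacrine and bipolar markers summed higher in both miR1247 than in both mCherry libraries, and the listed rod markers lower, with the values given above. Of the glial markers only Glul lay apart, with 795 and 632 FPKM in miR1247 against 463 and 122 FPKM in mCherry libraries. Aldoc (509 and 536 against 511 and 530 FPKM) and Apoe (44.3 and 58.0 against 42.6 and 45.1 FPKM) overlapped between these groups. The part of these markers in the differences was not tested.

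**Figure D5:**
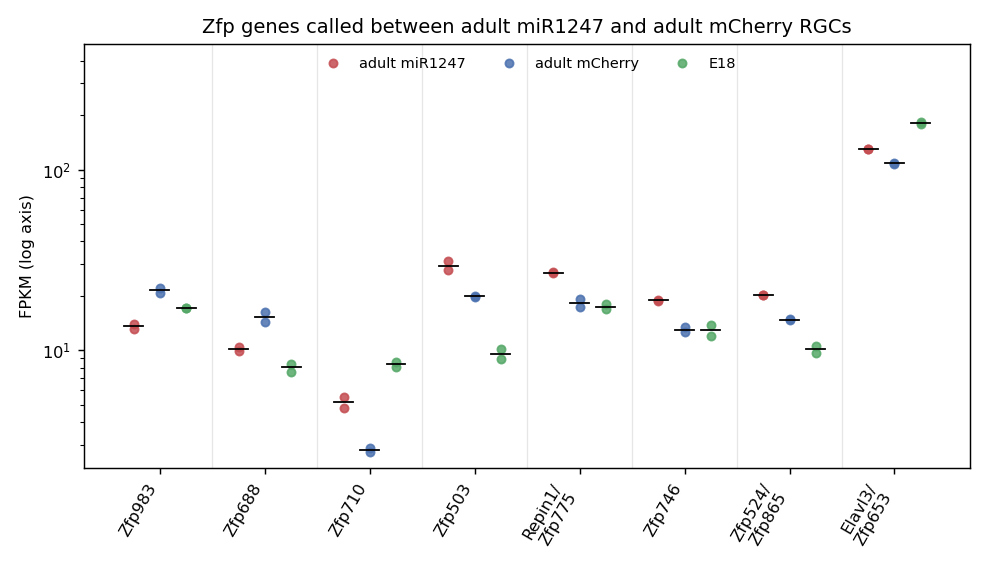
FPKM (log axis) of the 8 Zfp members called between adult miR1247 and adult mCherry cells, with 1 point per library and a black bar at the group mean, and with E18 libraries beside them. Zfp983 and Zfp688 have their lower values in miR1247 than in mCherry cells, the other 6 have their higher values there, and the miR1247 and mCherry libraries of a gene do not overlap.

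None of the 8 members with a seed match in the 3′ UTR was called in miR1247 over mCherry, and with 9.75% of all tested genes called, a count of 0 among 8 is near the background. Their median log2 fold change was 0.00, against -0.05 over the 236 annotated members without one. The strongest of them, Zfp706, had 63.6 and 63.5 FPKM in miR1247, 70.2 and 63.1 FPKM in mCherry and 86.7 and 77.4 FPKM in E18 libraries (log2 fold change -0.07 ± 0.0823, limma adjusted p = 0.644). Zfp553 and Zfp84, which hold 2 sites each, had log2 fold changes of -0.10 ± 0.117 and 0.09 ± 0.242. Over the 320 tested genes with such a match, 6 rose and 34 fell (1.88% and 10.6%, against 3.48% and 6.11% of 9357 genes with no match). None of the members was among these 34. The largest values among the 8 members were above 0, with Zfp787 at 0.51 ± 0.230 and Zfp949 at 0.37 ± 0.203, neither past the test. Of the 35 corepressor genes, Cbx1 and Morc3 rose and Cbx5 fell in miR1247 over mCherry. These are 5.71% and 2.86%, against 3.53% and 6.22% of all tested genes, so the calls are few in either direction. Morc3 stood at 6.69 ± 0.299 FPKM in miR1247, 3.40 ± 0.183 FPKM in mCherry and 8.45 ± 1.02 FPKM in E18 libraries (log2 fold change 0.80 ± 0.152, limma adjusted p = 0.0283). Whether these calls hold with a library left out is not given here.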

How the data were processed

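Poly-A RNA-seq of 6 mouse RGC libraries was used. Per the submitters' processing notes, the authors used HISAT2, the mm39 build, Cufflinks and Cuffdiff, and their versions are not given in the sources used here. An offset of 1e-05 present in every deposited FPKM value was taken off. The deposited log2 ratios of group means, made by the authors, served only as a check: they differed by at most 0.00206 from ratios recomputed from the FPKM values. Loci of 1 gene name were summed, and names with the same loci were taken once. Gene names averaging at least 1 FPKM were tested on log2(FPKM + 1) with limma 3.58.1 (R 4.3.3), with 3 group means over all 6 libraries, a variance trend, two-sided tests and Benjamini-Hochberg adjustment over 9987 genes at 0.05. A log2 fold change is given ± standard error, and it understates changes of weak genes. Levels are means ± SD with n = 2 libraries. The test was run on simulated data with independent noise and with changes in a small part of the genes, at E18 only. In these data 70.1% of genes were called in mCherry over E18 and replicates may be technical. The simulation therefore does not show how reliable the calls are here. Depth in reads is unknown, so no counting interval is given.

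Fingers were counted with a C2H2 pattern in the translated canonical coding sequence of GENCODE vM39. KRAB A boxes were found with a profile (PyHMMER 0.12.3) built from 207 windows of 40 residues, at an E-value under 0.001. Tables were handled in Python 3.11.15 with NumPy 2.4.6, pandas 2.3.3 and Matplotlib 3.10.9. The kit as named does not keep strand, and 71 members have a locus that overlaps another coding gene. Members and gene lists were chosen with earlier results of these data known. Named genes were the 8 called members at each end of mCherry over E18, all members called in miR1247 over mCherry, the 5 strongest of each group and the role lists. Alternatives tried were another pseudocount, other filters and scalings, loci taken singly, no variance trend, fits of 4 libraries, a replicate block and leaving out each library.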

Additional observations from a re-analysis of the deposited data

How the results depend on the processing

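In both comparisons with E18 the counts of members called, higher and lower, stayed within 1.5 times under every alternative other than leaving out a library, though the split moved with scaling. For mCherry over E18 it was 49 to 79 (median ratio), 41 to 88 (equal totals) and 49 to 80 (quantile normalization). For miR1247 over E18 it was 46 to 82, 33 to 110 and 48 to 81. Over all tested genes the splits moved too, in the same order 3424 to 3406, 3104 to 3618 and 3361 to 3510 for mCherry over E18. For miR1247 over E18 they were 3424 to 3428, 2679 to 4130 and 3363 to 3524. The member median moved to -0.14 in mCherry over E18 under median ratio scaling, and to -0.22 (median ratio) and -0.23 (quantile) in miR1247 over E18.

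In miR1247 over mCherry the 6 calls higher became 0 with equal totals, 1 with no variance trend, 0 in a fit of only the groups compared and 3 among members with 1 locus of their own, an alternative added after seeing the data. The 2 calls lower became 4 with equal totals, and 1 each with median ratio scaling, quantile normalization, a pseudocount of 0.1 and members with 1 locus of their own, and 0 in the fit of only the groups compared. The cause was not tested.

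With a replicate block 2 members were called higher and 1 lower in miR1247 over mCherry, 37 and 96 in mCherry over E18, and 33 and 101 in miR1247 over E18. Over all tested genes these counts were 206 and 378, 2920 and 3943, and 2765 and 4103. The labels do not say whether replicate numbers pair libraries across groups. Deviations of same-numbered libraries correlated at -0.008 (miR1247 with mCherry), 0.004 (miR1247 with E18) and -0.002 (mCherry with E18). These correlations can show only deviations that differ between genes, since a shift equal over all genes leaves them unchanged.

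Without one library, mCherry over E18 gave 24 to 36 higher, 69 to 97 lower and medians from -0.31 to -0.25. For miR1247 over E18 the ranges were 26 to 36, 80 to 108 and -0.39 to -0.35. For miR1247 over mCherry they were 0 to 1, 0 to 0 and -0.07 to -0.04. Over all tested genes, calls in miR1247 over mCherry and in mCherry over E18 also became fewer without any one library. How many genes stayed called in every such fit is given for members only, so those counts have no background. The group left with 1 library is assumed to vary like the others. No named gene changed direction under any alternative where it was called.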
